A study of Canis lupus familiaris with 9 samples.

Results

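EIF4EBP1 and 9 further genes of the mTOR nutrient pathway were examined in skeletal muscle of 9 intact female beagles. The others were EIF4EBP2, EIF4E, MTOR, RPTOR, RPS6KB1, RHEB, DDIT4, SESN1 and TSC2. All probe sets whose only platform gene symbol was among these names were taken, which gave 26 of the 42924 probe sets that are not controls, for 10 of 15115 named genes. The set was chosen by the difference of EIF4EBP1 between the feeding groups, which was known, and filled with genes of its pathway. Where several probe sets report on a gene, the brightest on average over the 9 dogs was selected on that mean level and stands for the gene, with the others given beside it. The dogs were 4 years old, and muscle was collected after 24 weeks of the feeding trial and an overnight fast. Ad libitum feeding, without restriction, was given to 5 dogs (animals 2, 5, 6, 7 and 8), and 4 control dogs (animals 1, 3, 4 and 9) received what held their body weight at its starting level. All dogs ate the same commercial performance diet and were assigned to the groups at random, and each contributed 1 Affymetrix canine array.

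mTOR is a protein kinase that couples growth to nutrients, and in complex 1 it works together with the adaptor raptor, encoded by RPTOR. The small GTPase RHEB switches this complex on, the tuberous sclerosis complex, of which TSC2 is the GTPase-activating subunit, switches RHEB off, and the complex in turn phosphorylates S6 kinase and the eIF4E-binding proteins. The binding protein encoded by EIF4EBP1 holds the cap-binding factor eIF4E in its unphosphorylated form and so represses cap-dependent translation, and phosphorylation by mTOR releases eIF4E. In skeletal muscle the pathway is known for its role in the response of protein synthesis to feeding, insulin and amino acids. The arrays measured transcripts only, so the activity of the kinase and the phosphorylation of its substrates were not measured here.

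Values are GCRMA values, read as log2, so a difference of 1 is a 2-fold change. Differences are the ad libitum mean minus the control mean, and their standard error (SE) comes from a limma fit over the 18394 probe sets above a filter on low values. The filter asked for a value above 4 on at least 4 arrays. EIF4EBP2 did not pass it, so 9 of the 10 genes and 20 of the 26 probe sets were tested. Values of different probe sets cannot be set against each other as amounts of RNA. Array pairs correlated at r = 0.934 to 0.981 across the tested probe sets, and precision is limited by having 9 arrays. The defining transcripts of muscle were present on every array: the 12 tested muscle fibre markers had a per-dog mean of 15.2 to 15.6 in ad libitum and 15.5 to 15.6 in control dogs.

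Every ad libitum dog had a lower EIF4EBP1 value in muscle than every control dog. Its probe set read 10.49, 9.92, 10.24, 10.65 and 10.73 in ad libitum dogs 2, 5, 6, 7 and 8, against 11.02, 12.02, 11.32 and 11.40 in control dogs 1, 3, 4 and 9. The groups did not overlap: the highest ad libitum dog, at 10.73, stood 0.29 below the lowest control dog, at 11.02. The 5 ad libitum dogs had a mean of 10.40 ± 0.33 and the 4 control dogs one of 11.44 ± 0.42 (± SD), which gives a log2 difference of -1.04 (SE 0.23, 95% interval -1.55 to -0.52), or 0.488 times the control level. The limma p adjusted by the Benjamini-Hochberg method over all tested probe sets was 0.796, with the probe set at rank 12 by unadjusted p, so the difference did not pass the threshold of 0.05. EIF4EBP1 was singled out for its place in this same comparison, so its values are a description and carry no independent test.

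The second EIF4EBP1 probe set gave the same order of groups. It read 10.10, 9.56, 9.79, 10.34 and 10.24 in ad libitum dogs 2, 5, 6, 7 and 8, against 10.66, 11.77, 10.99 and 10.96 in control dogs 1, 3, 4 and 9. The gap between the groups was 0.32 and the log2 difference -1.09 (SE 0.25). Across the 9 dogs the probe sets ran together (Pearson r = 0.995, Spearman rho = 0.967, given as a description). By either probe set control dog 3 was the highest dog and ad libitum dog 5 the lowest.

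**Figure D1:**
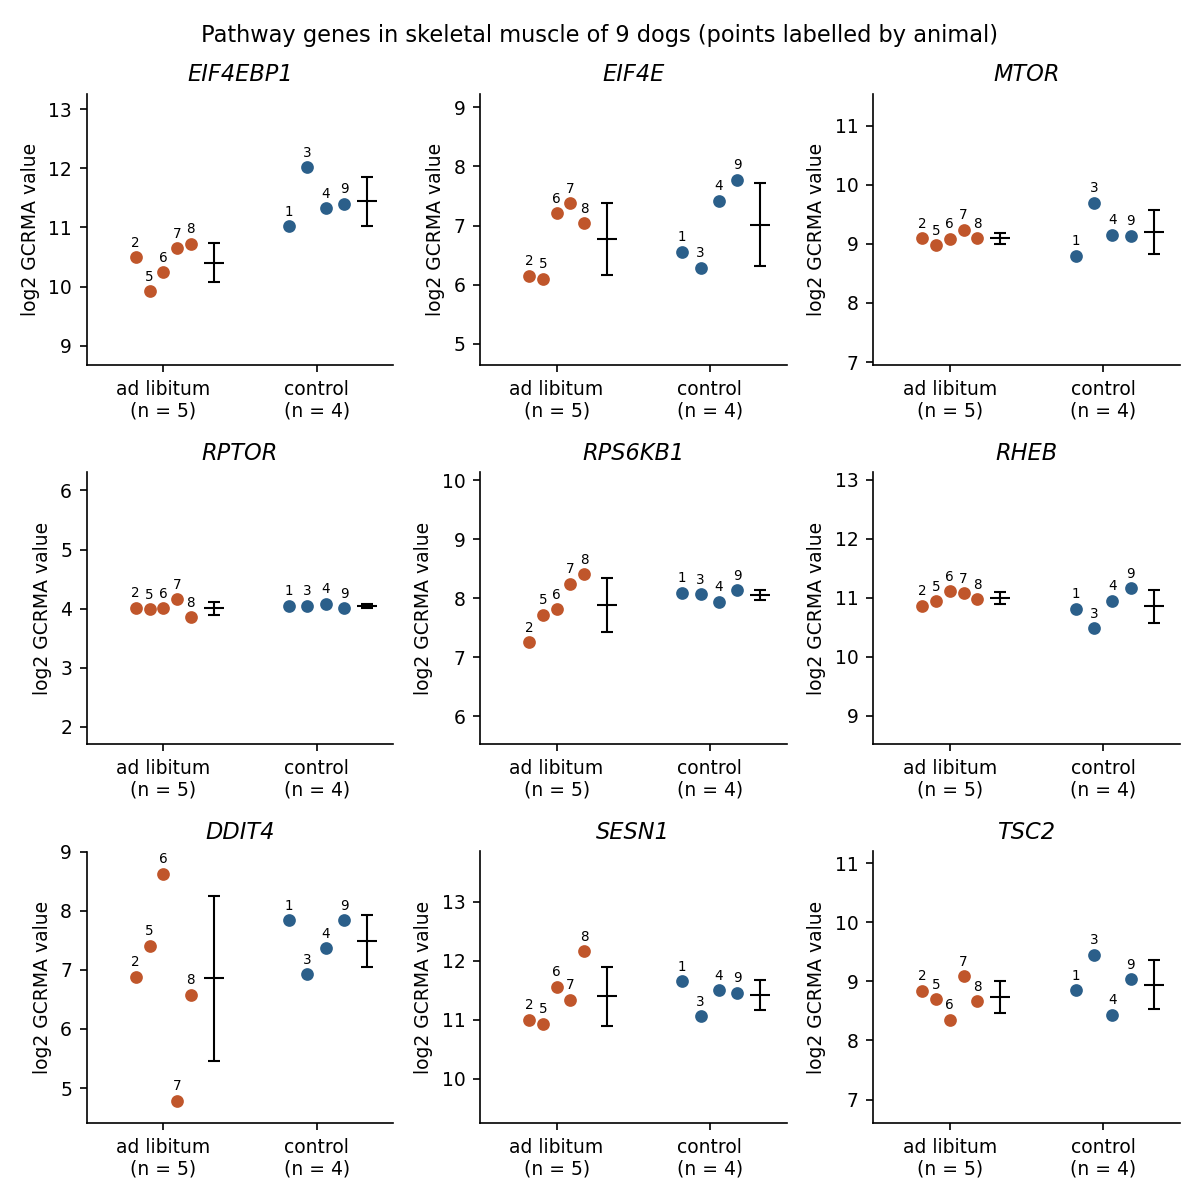
Log2 GCRMA value (y axis, each panel spanning the same number of log2 units) of the 9 tested pathway genes in 5 ad libitum (left) and 4 control dogs (right), each gene by its brightest probe set; points are dogs labelled by animal number, and the bar with caps is the mean ± SD. EIF4EBP1 has all 5 ad libitum dogs, 9.92 to 10.73, below the 4 control dogs, 11.02 to 12.02, the other panels overlap, and DDIT4 spreads from 4.78 to 8.63 within the ad libitum group.

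The other 8 tested genes overlapped between the groups. Among all 7534 tested genes, 0.69% had every ad libitum dog below every control dog, and 1 of the 9 pathway genes, EIF4EBP1, did so. By an adjusted limma p under 0.05, 0 of the 9 genes were called, and the same held for 0% of all tested genes. Without adjustment, limma gave p under 0.05 for EIF4EBP1 alone, 1 of 9, where 6.23% of all genes reached that level (469 of 7534). Over the 8 genes other than EIF4EBP1, adjusted limma p ran from 0.887 for DDIT4 to 0.995 for SESN1. Two-sided exact permutation p, over the 126 arrangements of the dogs, ran from 0.373 for TSC2 to 0.937 for SESN1, where the smallest p this design allows is 0.00794.

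**Figure D2:**
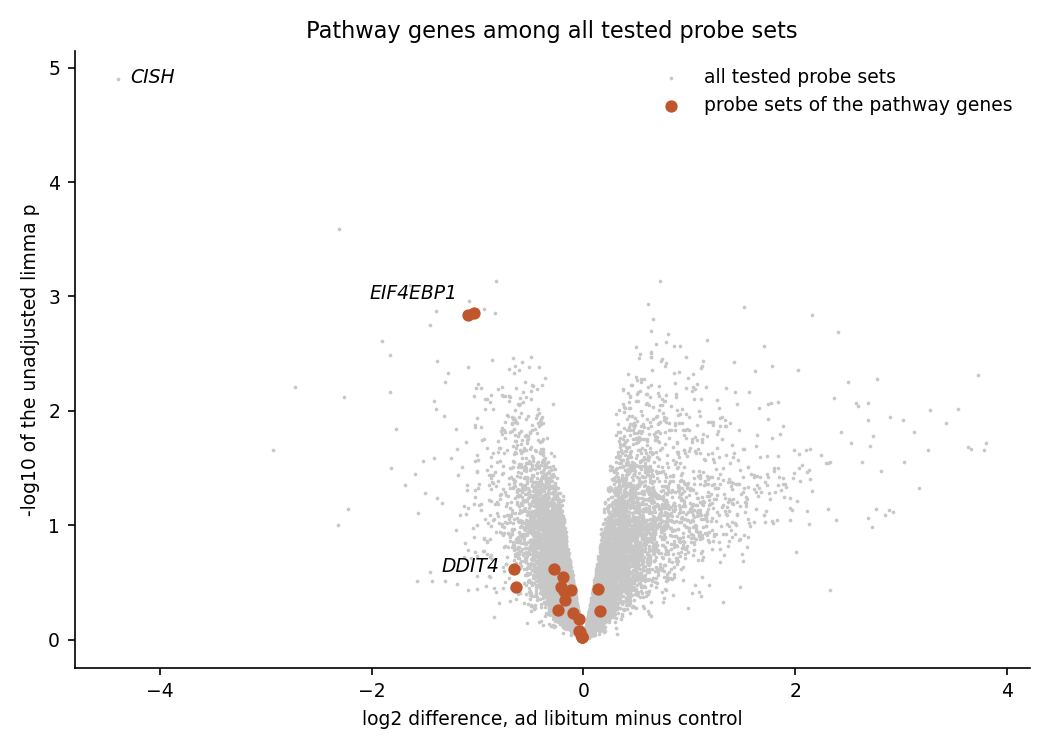
Log2 difference, ad libitum minus control (x axis), against -log10 of the unadjusted limma p (y axis) for the 18394 tested probe sets (grey) and the 20 tested probe sets of the pathway genes (orange). Both EIF4EBP1 probe sets lie at differences of -1.04 and -1.09 near the top left, the DDIT4 probe sets lie at -0.64 and -0.65 with a p far from the threshold, and CISH lies at -4.40.

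The partners of EIF4EBP1 at the cap gave no difference beyond the spread between dogs. EIF4E, the cap-binding factor itself, read 6.15, 6.10, 7.20, 7.38 and 7.04 in ad libitum dogs 2, 5, 6, 7 and 8, against 6.56, 6.29, 7.42 and 7.77 in control dogs 1, 3, 4 and 9. Each group held dogs below 7 and dogs above 7, and ad libitum dogs 2 and 5 were below all control dogs. The log2 difference was -0.24 (SE 0.39, 95% interval -1.11 to 0.63). Its within-group SD of 0.65 was larger than that of 91.3% of tested probe sets. The other EIF4E probe set differed by -0.033 (SE 0.17), with values of 5.48 to 6.33 in ad libitum and 5.81 to 6.16 in control dogs. The interval of the first probe set leaves room for a change in either direction, and that of the second runs from -0.42 to 0.35.

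EIF4EBP2, the second eIF4E-binding protein gene of the set, lay under the filter on every array. Its higher probe set read 3.56 to 3.85 in ad libitum and 3.63 to 3.85 in control dogs, and its other probe set read 3.47 in each of the 4 control dogs. At such values GCRMA output is near its background, and no difference was tested. EIF4EBP3, the remaining family member, is not analysed here.

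RPS6KB1 encodes the S6 kinase that mTOR complex 1 activates and that phosphorylates ribosomal protein S6. It read 7.26, 7.72, 7.82, 8.25 and 8.41 in ad libitum dogs 2, 5, 6, 7 and 8, against 8.10, 8.07, 7.94 and 8.14 in control dogs 1, 3, 4 and 9. The control dogs lay within 0.2 of each other and inside the range of the ad libitum dogs, 3 of which were below all control dogs and 2 above. The log2 difference was -0.17 (SE 0.22, 95% interval -0.67 to 0.32), and without ad libitum dog 2 it was -0.015. The other RPS6KB1 probe set stood at 2.01 to 2.04 in ad libitum and 2.02 to 2.05 in control dogs, under the filter.

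The kinase complex itself differed little. MTOR read 9.10, 8.98, 9.09, 9.24 and 9.09 in ad libitum dogs 2, 5, 6, 7 and 8, against 8.80, 9.70, 9.15 and 9.14 in control dogs 1, 3, 4 and 9. All ad libitum dogs fell between the lowest and the highest control dog, and the log2 difference was -0.097 (SE 0.17, 95% interval -0.48 to 0.28). Without control dog 3, the highest, it was 0.069. The other 3 tested MTOR probe sets differed by -0.19, -0.039 and -0.12, and 3 more were under the filter.

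RPTOR, the substrate-recruiting adaptor, read 4.01, 3.99, 4.01, 4.16 and 3.85 in ad libitum dogs 2, 5, 6, 7 and 8, against 4.05, 4.05, 4.08 and 4.01 in control dogs 1, 3, 4 and 9. The log2 difference was -0.045 (SE 0.097, 95% interval -0.26 to 0.17). These values sit at the level of the filter, and a within-group SD smaller than that of nearly all tested probe sets (percentile 3.25) goes with them.

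Upstream, the activator RHEB was the only gene of the 9 with a higher mean in ad libitum muscle. It read 10.86, 10.94, 11.11, 11.07 and 10.97 in ad libitum dogs 2, 5, 6, 7 and 8, against 10.82, 10.48, 10.95 and 11.16 in control dogs 1, 3, 4 and 9. The ad libitum dogs lay close together inside the control range, and the log2 difference of 0.14 (SE 0.14, 95% interval -0.19 to 0.46) was 0.014 without control dog 3. TSC2, whose product keeps RHEB inactive, read 8.85, 8.70, 8.35, 9.09 and 8.67 in ad libitum dogs 2, 5, 6, 7 and 8, against 8.85, 9.45, 8.44 and 9.04 in control dogs 1, 3, 4 and 9. Its log2 difference was -0.21 (SE 0.22, 95% interval -0.70 to 0.27), that of its other probe set -0.19, and without control dog 3 it was -0.045. Control dog 3 thus held the highest EIF4EBP1, MTOR and TSC2 values and the lowest RHEB value of the 9 dogs.

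DDIT4 and SESN1 encode stress-induced inhibitors of the pathway, acting through the tuberous sclerosis complex and through amino acid sensing. DDIT4 varied most among dogs of the 9 tested genes. It read 6.89, 7.41, 8.63, 4.78 and 6.58 in ad libitum dogs 2, 5, 6, 7 and 8, against 7.84, 6.92, 7.37 and 7.85 in control dogs 1, 3, 4 and 9. Both the highest and the lowest dog were ad libitum dogs, number 6 and number 7, and the within-group SD of 1.09 exceeded that of 98.2% of tested probe sets. Ad libitum dogs had a mean of 6.86 ± 1.40 (SD, n = 5) and control dogs one of 7.49 ± 0.44 (SD, n = 4), so the log2 difference was -0.64 (SE 0.64, 95% interval -2.08 to 0.81). Without ad libitum dog 7 it was -0.12, and without ad libitum dog 6 it was -1.08. This probe set has the suffix that Affymetrix gives to probes that may match other transcripts. The gene-specific one differed by -0.65 (SE 0.52) and followed the same dogs, from 4.50 in ad libitum dog 7 to 7.57 in ad libitum dog 6.

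SESN1, sestrin 1, read 11.00, 10.93, 11.56, 11.34 and 12.17 in ad libitum dogs 2, 5, 6, 7 and 8, against 11.66, 11.06, 11.50 and 11.46 in control dogs 1, 3, 4 and 9. Ad libitum dogs lay on either side of the control range, and the log2 difference was -0.015 (SE 0.25, 95% interval -0.59 to 0.56). Its other 4 probe sets, all tested, gave -0.014, -0.014, -0.28 and 0.15. No SESN1 probe set separated the groups.

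**Figure D3:**
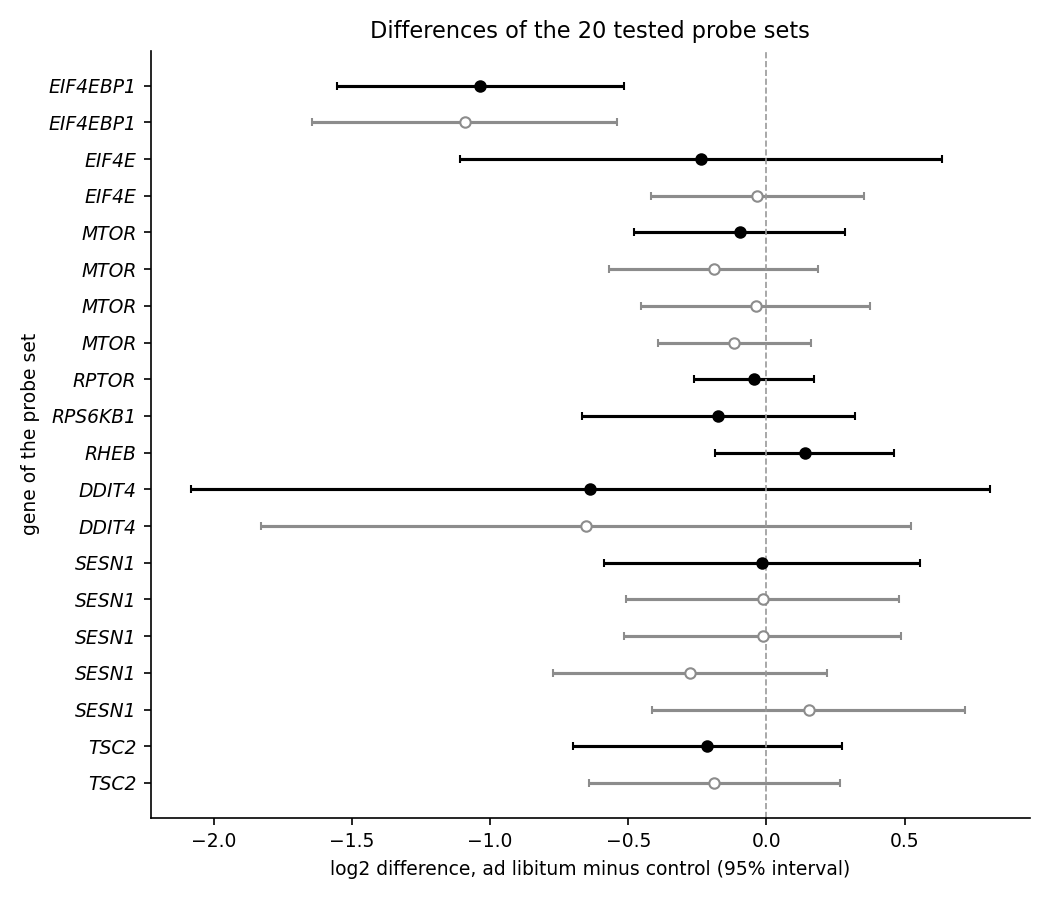
Log2 difference, ad libitum minus control, with its 95% interval from limma (x axis) for the 20 tested probe sets (y axis); filled points are the brightest probe set of each gene, open points the others. The intervals of both EIF4EBP1 probe sets lie below 0, from -1.55 to -0.52 and from -1.64 to -0.54 without adjustment for the number of probe sets, and those of the other 18 include 0.

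Markers of 3 other cell types had higher means in ad libitum muscle for every tested gene, and those of 4 more did not. Adipocyte markers were higher in ad libitum muscle for 15 of 15 tested genes (median log2 difference 0.69, per-dog list mean 7.50 to 9.38 in ad libitum and 6.83 to 8.39 in control dogs). Macrophage markers were higher for 8 of 8 tested genes out of 14 on the list (median 1.08, list mean 5.00 to 8.01 in ad libitum and 4.90 to 5.66 in control dogs). Markers of fibroblasts and fibro-adipogenic progenitors were higher for 13 of 13 (median 1.74, list mean 8.09 to 11.95 in ad libitum and 7.74 to 9.17 in control dogs). The adipocyte hormone ADIPOQ averaged 10.99 in ad libitum and 10.62 in control dogs, and the macrophage receptor CD163 averaged 5.25 in ad libitum and 3.83 in control dogs. This control mean of CD163 is under the filter level of 4. A low marker could pass the filter through the ad libitum dogs alone. The macrophage count and median may therefore lean toward higher values in ad libitum muscle. Endothelial markers split, with 6 higher and 6 lower (median 0.015), and markers of smooth muscle and pericytes had 5 higher and 3 lower (median 0.021). The 1 tested lymphocyte marker, of 8 on the list, differed by -0.053, and the 2 tested red blood cell markers, of 5 on the list, were both lower (median -0.11). No marker gene of these lists passed an adjusted limma p of 0.05. In bulk muscle, fewer cells of a type and less RNA per cell cannot be told apart. With the macrophage mean as a covariate the EIF4EBP1 difference was -0.67 (limma, unadjusted p = 0.012, adjusted p = 0.9999). With the adipocyte mean it was -0.80 (limma, unadjusted p = 0.024, adjusted p = 0.9999). Without a covariate its unadjusted limma p was 0.0014. The smallest adjusted limma p of any tested probe set was 0.9999 with the macrophage covariate and 0.414 with the adipocyte covariate. Ad libitum dog 7 had list means inside the control range for adipocytes, macrophages and fibroblasts (7.50, 5.00 and 8.09). Its EIF4EBP1 value of 10.65 was below the lowest control dog, at 11.02. This is 1 dog, and others went the other way. Ad libitum dog 5, with the lowest EIF4EBP1 value (9.92), had the highest macrophage and fibroblast means of all dogs (8.01 and 11.95). Control dog 3, with the highest EIF4EBP1 value (12.02), had the lowest of both (4.90 and 7.74). No fit took the fibroblast mean as a covariate, and the part of cell content in the EIF4EBP1 difference was not tested. Slow fibre markers were higher in ad libitum muscle for 7 of 7 tested genes (median 0.10, list mean 14.89 to 15.25 in ad libitum and 14.86 to 15.08 in control dogs). Fast fibre markers were lower for 10 of 10, by -1.06 to -0.00049 (median -0.15). Their list means overlapped, at 13.03 to 14.52 in ad libitum and 14.01 to 14.57 in control dogs. With the fast fibre mean as a covariate the EIF4EBP1 difference was -1.13.

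A further 85 tested genes, in lists of 7 pathway branches and 1 list of glucocorticoid-responsive muscle genes, had 36 genes higher and 49 lower in ad libitum muscle, and 0 passed an adjusted limma p of 0.05. The median log2 difference over these genes was -0.036, and over all tested genes it was -0.0021 with 49.6% higher. Without adjustment, 2 list genes were higher and 2 lower at p under 0.05, against 4.1% higher and 2.12% lower of all genes. The named genes below therefore stand as values.

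Other subunits and assembly factors of the mTOR complexes had lower means for 6 of 6 tested genes, with a median log2 difference of -0.042. DEPTOR, an inhibitor that binds mTOR, had the largest, at -0.65 (SE 0.45), and read 10.05, 8.40, 8.64, 8.29 and 8.02 in ad libitum dogs 2, 5, 6, 7 and 8, against 9.23, 10.30, 8.71 and 9.06 in control dogs 1, 3, 4 and 9. Thus 4 of 5 ad libitum dogs were below all control dogs, and dog 2 was not. MLST8, a shared subunit, differed by -0.10, AKT1S1, an inhibitory subunit of complex 1, by -0.036, and TELO2, an assembly factor, by -0.047. RICTOR was under the filter. With cyclic loess scaling 1 of the 6 was higher and 5 were lower, and with the macrophage covariate 5 were higher and 1 lower.

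Genes that act through the tuberous sclerosis complex and RHEB split, with 4 higher and 5 lower and a median log2 difference of -0.17. This median was 0.031 without ad libitum dog 6, with 5 higher and 4 lower, and -0.0048 without control dog 4. It was -0.070 without ad libitum dog 8 and -0.089 without control dog 3, -0.038 with the filter at 6 and -0.044 with the adipocyte covariate. DDIT4L, a muscle-enriched relative of DDIT4, read 9.65, 8.64, 9.79, 8.91 and 10.55 in ad libitum dogs 2, 5, 6, 7 and 8, against 10.63, 10.03, 9.78 and 11.09 in control dogs 1, 3, 4 and 9, a log2 difference of -0.88 (SE 0.41, limma, adjusted p = 0.796). In DDIT4L 3 of 5 ad libitum dogs were below all control dogs. The catalytic subunits of AMP-activated kinase, which restrains the pathway when energy is low, had opposite signs, with PRKAA2 at -0.46 (SE 0.27) and PRKAA1 at 0.28 (SE 0.18). TSC1, the partner of TSC2, differed by -0.25 (SE 0.22), and the insulin-responsive kinases AKT1 and AKT2 by -0.17 and 0.097.

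**Figure D4:**
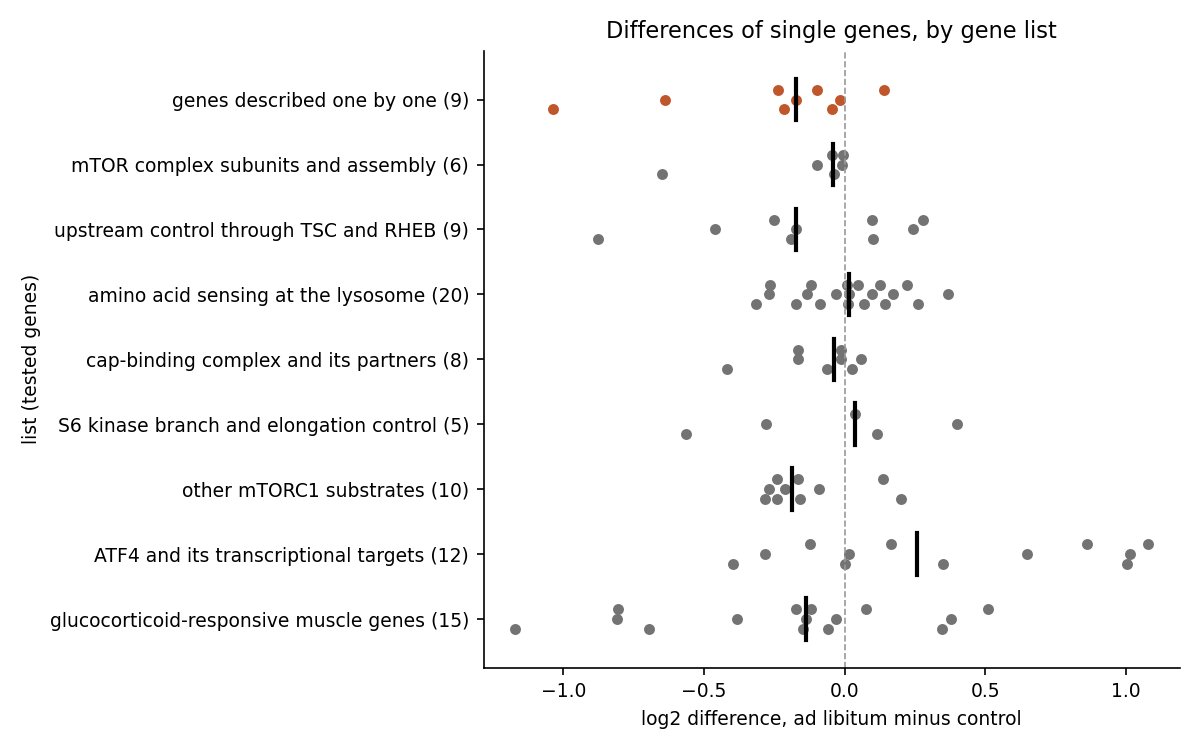
Log2 difference, ad libitum minus control (x axis), of each tested gene (points) in the set described gene by gene (orange) and in 8 lists of other genes, the glucocorticoid-responsive list included (grey); black bars are medians and numbers in brackets are tested genes. The medians run from -0.19 for other mTORC1 substrates to 0.26 for ATF4 and its targets, against -0.0021 over all tested genes.

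Amino acid sensing at the lysosome, where the Rag GTPases and the Ragulator scaffold recruit mTOR complex 1, had 12 genes higher and 8 lower, with a median log2 difference of 0.014. Centring each array on its median turned this split to 9 higher and 11 lower. The Ragulator subunit LAMTOR4 differed by 0.37 (SE 0.20), the KICSTOR subunit ITFG2 by -0.32 (SE 0.17), and NPRL3 and WDR59, subunits of the GATOR complexes, by -0.27 and -0.27. ITFG2 averaged 4.56 in ad libitum and 4.88 in control dogs, near the filter level of 4. RRAGD, a Rag GTPase, differed by 0.017 and FLCN, folliculin, by -0.12. SESN2 and SESN3, the relatives of SESN1, were under the filter.

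The cap-binding complex and its partners had 2 genes higher and 6 lower, with a median log2 difference of -0.037. The split was 3 higher and 5 lower with cyclic loess, and 1 higher and 7 lower with arrays centred on the median. EIF4E3, a cap-binding relative of EIF4E, differed by -0.42 (SE 0.20), EIF4B by -0.17, the eIF4E kinase MKNK2 by -0.16 and the helicase EIF4A2 by 0.058. In the S6 kinase branch 3 genes were higher and 2 lower (median 0.038), with RPS6KA3 and RPS6KA1, S6 kinases of the ERK branch, at -0.56 (SE 0.34) and 0.40 (SE 0.27), POLDIP3, an S6 kinase partner, at -0.28, RPS6KB2, the second S6 kinase gene, at 0.11, and the elongation factor EEF2 at 0.038. With arrays centred on the median, 2 of these 5 were higher and 3 lower. RPS6KA1 read 5.58 in ad libitum dog 5, 4.15 to 4.75 in the other ad libitum dogs and 4.10 to 4.35 in control dogs. EIF4E3, MKNK2 and RPS6KA1 had group means of 4.24 to 4.85, near the filter level of 4, where sizes are uncertain. Among 10 other mTORC1 substrates and targets 2 were higher and 8 lower, with a median log2 difference of -0.19. Of these, LARP1, which binds messengers of ribosomal proteins, differed by -0.24, the lysosomal transcription factors TFE3, MITF and TFEB by 0.20, -0.27 and -0.16, and the autophagy kinase ULK1 by -0.093.

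ATF4 is a transcription factor of the amino acid and stress response, and EIF4EBP1 and DDIT4 are known as targets of it in mouse and human cells. In the list of ATF4 and its other targets, 12 of the 20 genes on the array passed the filter and were tested. Of these, 9 were higher and 3 lower in ad libitum muscle, and 0 passed the adjusted threshold. The median log2 difference was 0.26, beside -0.0021 for all genes. The part of ATF4 in the EIF4EBP1 difference was not tested. DDIT3, a stress-induced transcription factor, read 6.59, 6.20, 6.49, 7.00 and 6.14 in ad libitum dogs 2, 5, 6, 7 and 8, against 5.67, 5.61, 6.15 and 5.08 in control dogs 1, 3, 4 and 9. That is a log2 difference of 0.86 (SE 0.24, limma, adjusted p = 0.796), with 4 of 5 ad libitum dogs above all control dogs. PSPH, PSAT1 and PHGDH, which act in serine synthesis, differed by 1.08 (SE 0.44), 0.65 (SE 0.34) and 1.01 (SE 0.59), and asparagine synthetase, ASNS, by 1.00 (SE 0.48). All 12 tested genes of the list overlapped between the groups. PHGDH, for 1, read 6.67 to 9.48 in ad libitum and 6.66 to 8.51 in control dogs. Of the 3 lower genes, CHAC1 differed by -0.40 (SE 0.60). ASNS, PSAT1 and CHAC1 each had values under the filter level of 4, where sizes are uncertain. ATF4 itself stood at 14.12 ± 0.16 in the 5 ad libitum dogs and at 14.24 ± 0.22 in the 4 control dogs (mean ± SD), a difference of -0.13. TRIB3 and EEF2K were under the filter, and EIF4G1 and RPS6 are not analysed here. Centring each array on its median changed the split of this ATF4 list to 7 higher and 5 lower. The list median was 0.028 with the adipocyte covariate, where 8 were higher and 4 lower, and 0.10 with the macrophage covariate, where 11 were higher and 1 lower. The part of these cell types in the ATF4 list was not tested further.

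The genes with a pattern most like that of EIF4EBP1 over the 9 dogs, among 7525 tested genes outside the set, were ZNF280C (Pearson r = 0.966, Spearman rho = 0.971), APOM (0.948 and 0.962), PTP4A3 (0.926 and 0.883), TLN2 (0.924 and 0.895) and PTDSS2 (0.914 and 0.900). All of them had lower means in ad libitum muscle, with log2 differences from -0.63 for TLN2 to -0.28 for APOM. This shared direction follows from the choice, since EIF4EBP1 itself separated the groups in these same dogs. ZNF280C averaged 4.06 in ad libitum and 4.36 in control dogs, near the filter level of 4. After the group means were removed, the closest were HPN (r = 0.983), SGCA (r = 0.967), POMT1 (r = 0.961), VPS11 (r = 0.961) and CLPTM1 (r = 0.954), none of which is in the first group. With the group means left in, HPN did not follow EIF4EBP1 (r = -0.092), and it had a higher mean in ad libitum muscle, by 0.64. The others had lower means, by -0.016 for SGCA to -0.33 for CLPTM1. These coefficients are the highest of many candidates over few dogs and describe likeness only.

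CISH and SOCS2, feedback inhibitors of growth hormone signalling that also separated the groups, had log2 differences of -4.40 and -2.31. CISH read 1.60, 1.63, 3.96, 2.22 and 3.46 in ad libitum dogs 2, 5, 6, 7 and 8, against 7.11, 7.32, 6.16 and 7.29 in control dogs 1, 3, 4 and 9. Its ad libitum values lie under the filter level of 4, so CISH passed the filter through the 4 control dogs alone. The size of that difference is uncertain.

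**Figure D5:**
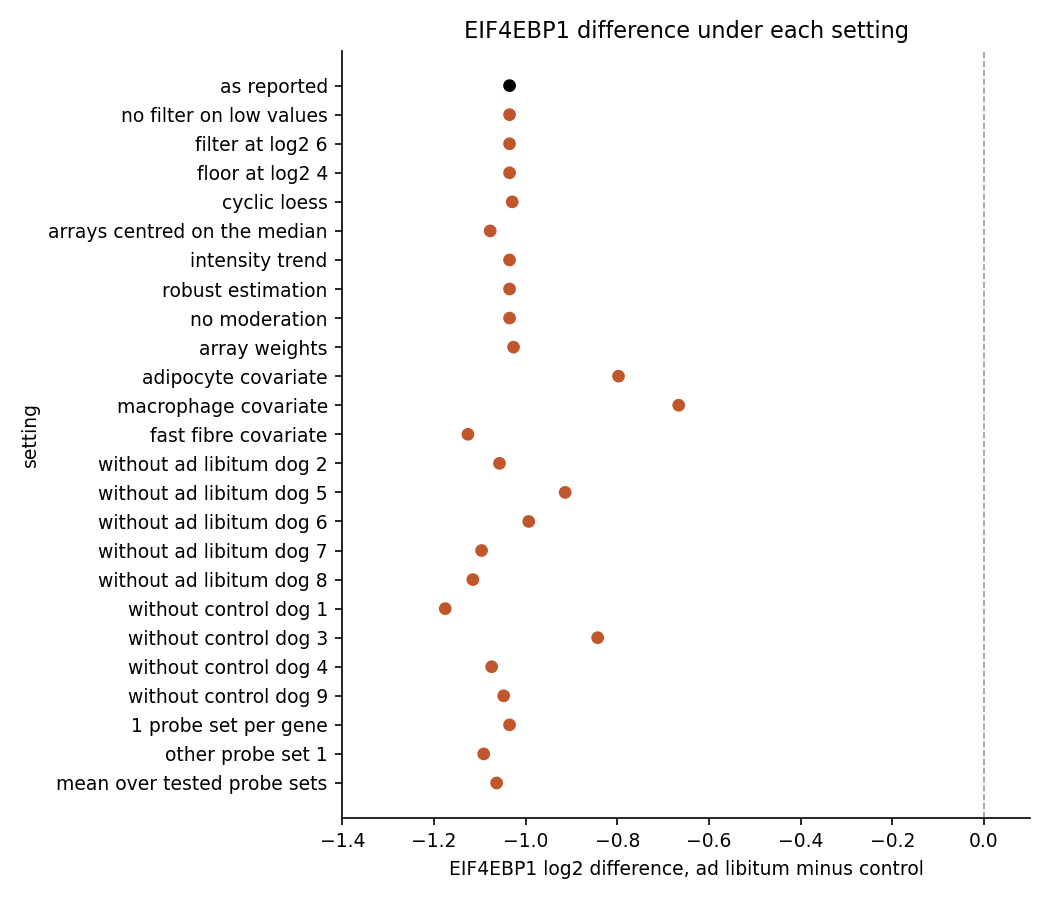
EIF4EBP1 log2 difference, ad libitum minus control (x axis), as reported (black) and under each other setting or with 1 dog left out (orange, y axis). All values are below 0, from -1.18 without control dog 1 to -0.67 with the macrophage covariate.

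The EIF4EBP1 difference kept its direction under every setting in the plot of settings, and its adjusted limma p ran from 0.158 to 1.00. With 1 dog left out it ran from -1.18 without control dog 1 to -0.84 without control dog 3.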

How the data were processed

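Muscle RNA of 9 dogs was measured on 1 Affymetrix canine array each. The authors deposited values made with GCRMA (no version stated), according to the submitters' processing notes. No source used here gives the log base, and log2 was inferred from the range of the deposited values, 0.652 to 16.6. GCRMA corrects for background, normalizes arrays by quantiles and summarises each probe set, so a shift common to most transcripts would not appear, and low values are uncertain in size. Of 43035 probe sets, 111 controls were left out and the 18394 that exceeded 4 on 4 or more arrays entered the tests. Genes were named from the platform's 2016 annotation, and all 10 members matched a RefSeq gene table of another assembly, used for names only.

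A linear model was fitted per probe set in R 4.3.3 with limma 3.58.1 (lmFit, eBayes, two-sided, no covariate, 7 residual and 2.32 prior degrees of freedom) and adjusted by the Benjamini-Hochberg method over all tested probe sets, and the script was tested on simulated data. Groups and animal numbers came from the sample titles, which match the treatment labels. The labels name no batch, so none was tested. Genes were named by rule: every member, up to 4 genes per pathway list by lowest p, a fixed panel, CISH and SOCS2, and the 5 genes most like EIF4EBP1. PHGDH, CHAC1, ADIPOQ, CD163 and LOC489640 were named in addition after their values were seen. Members and lists were chosen with earlier results of these data known. Alternatives were other filters, a floor, cyclic loess, median centring, other variance models, array weights, marker covariates, other probe sets and leaving out each dog. The 3' minus 5' value of the GAPDH control probe sets was 2.21 ± 0.068 over 5 ad libitum dogs and 2.09 ± 0.11 over 4 control dogs (mean ± SD, two-sided exact permutation p = 0.0714).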

Additional observations from a re-analysis of the deposited data

Results flagged for a closer look

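For 2 probe sets of MTOR, neither of them the one that represents the gene, 1 dog stood apart from the rest of its group. On the third-ranked MTOR probe set, ad libitum dog 5 read 7.90, and the other 4 ad libitum dogs read 8.23 to 8.31. On the MTOR probe set nearest to the filter, control dog 3 read 4.46, and the other 3 control dogs read 4.00 to 4.02. In total, 40 groups of values were examined, and chance alone picks out about 1 in 20 groups.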

How the results depend on the processing

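With 1 dog left out, the EIF4EBP1 difference ran from -1.18 to -0.84 and the number of probe sets past an adjusted limma p of 0.05 was 0 to 1. The 1 probe set, of LOC489640, was called without ad libitum dog 8. It was also 1 with values below 4 raised to 4, where CISH was called, and 0 under the other settings and at a threshold of 0.10. Raising the values gave all 5 ad libitum dogs the same CISH value and removed their spread, so that call rests on the setting. EIF4E, MTOR, RPTOR, RPS6KB1 and SESN1, with reported differences from -0.24 to -0.015, changed sign under some settings. With the adipocyte covariate, EIF4E stood at 0.19, MTOR at 0.093, RPTOR at 0.016, RPS6KB1 at 0.076 and SESN1 at 0.0080. With the macrophage covariate, EIF4E stood at 0.15, MTOR at 0.055, RPS6KB1 at 0.037 and SESN1 at 0.15. With 1 dog left out, EIF4E ran from -0.48 to 0.018, MTOR from -0.23 to 0.069 and SESN1 from -0.21 to 0.10, and the fourth other probe set of SESN1 gave 0.15. The cause of these turns was not tested. DDIT4 kept its sign but ran from -1.77 with the adipocyte covariate to -0.12 without ad libitum dog 7. No member passed the threshold under any setting run. With 1 dog left out, 8 to 10 of the 12 genes of the ATF4 list were higher and 7 to 9 of the 10 other mTORC1 substrates were lower, but with the macrophage covariate 6 of those 10 were higher and 4 lower. Of the 6 complex subunits and assembly factors 3 to 6 were lower, and of the 8 cap-binding partners 4 to 8. Several list medians changed sign too under some settings, among them that of the other substrates, reported as -0.19. With the macrophage covariate the median was 0.11 for the other substrates, 0.053 for the complex subunits, 0.023 for the cap-binding partners and -0.058 for the S6 kinase branch. With the adipocyte covariate it was -0.015, 0.068, 0.0095 and 0.091 for these lists in the same order. With 1 dog left out the S6 kinase median ran from -0.060 to 0.10, and the lysosomal median was -0.070 without ad libitum dog 8. No paired analysis was possible because the animal numbers of the groups differ.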

Other observations

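Glucocorticoid-responsive genes of muscle, a class to which DDIT4 is also known to belong, had 4 higher and 11 lower of 15 tested genes in ad libitum muscle, with a median log2 difference of -0.14 beside -0.0021 for all tested genes. None passed an adjusted limma p of 0.05, and 2 of the 15 had an unadjusted p under 0.05, both lower, where 2.12% of all tested genes were lower at that level. DUSP1, a phosphatase of MAP kinases, read 13.32, 12.95, 13.24, 11.92 and 12.24 in ad libitum dogs 2, 5, 6, 7 and 8, against 13.61, 13.30, 13.51 and 13.75 in control dogs 1, 3, 4 and 9, a log2 difference of -0.80 (SE 0.30). FBXO32, the muscle ubiquitin ligase atrogin-1, differed by -0.81 (SE 0.34), the kinase SGK1 by -1.17 (SE 0.60) and FOXO3, a transcription factor of muscle atrophy, by -0.38 (SE 0.20). FKBP5, a chaperone that glucocorticoids induce in many tissues, differed by -0.17 (SE 0.47). With 1 dog left out the number lower ran from 8 to 11 and the median from -0.20 to -0.044, the value without ad libitum dog 5. The median was -0.030 with the macrophage covariate and -0.074 with the adipocyte covariate.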
